A study of Mus musculus with 8 samples.

Results

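Complement genes were followed in gastrocnemius, a fast muscle of the calf, of arthritic mice with and without dipyridamole treatment. The set was chosen by symbol and by role in the cascade: 32 genes were listed, 31 of them have a line in the count tables of all 8 libraries, out of 21833 gene symbols in all, and 21 had enough reads to be tested. Both groups were male C57BL/6J recipients, bought as that strain and 12 weeks old, that were injected in the peritoneum with 100 µL of pooled serum of arthritic K/BxN mice on day 0 and again on day 2. RA+Dipy mice (n = 4) got dipyridamole besides, at 25 mg/kg each day from day 0, and RA mice (n = 4) had serum without it. Muscle was taken on day 16. The labels give K/BxN as the genotype of all samples and name dipyridamole in a protocol field of the RA samples too, so the grouping rests on the sample titles. Dipyridamole blocks nucleoside transporters, which raises adenosine outside cells, and it inhibits phosphodiesterases. Antibodies in the serum form immune complexes in the recipients' joints, the known site of disease in this model. Muscle from mice without arthritis was not analysed here.

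Complement is a cascade of plasma proteins that tags surfaces and recruits leukocytes. In the classical pathway C1q, built of C1qa, C1qb and C1qc chains, binds antibody complexes and switches on the proteases C1r and C1s, which cut C4 and C2. In the lectin pathway mannose-binding lectins and the MASP proteases do the same work. Both lead to cleavage of C3, which the alternative pathway, through factor B and properdin, amplifies. Fragments C3a and C5a act on receptors of myeloid cells, and C5 to C9 build the membrane attack complex. Host cells are shielded by C1 inhibitor and by membrane regulators such as CD55, CD59 and Crry. Liver makes most of the circulating proteins, whereas C1q comes mainly from macrophages, and fibroblasts and adipocytes make several of the early components.

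The libraries held 16.4 to 25.4 M counts in RA+Dipy and 16.7 to 50.6 M in RA, as sums over protein-coding genes. Fast fibre genes were high in all: the 8 markers, Myh4 and Tnnt3 the highest among them, summed to 168100 to 188000 CPM in RA+Dipy and 164600 to 228600 CPM in RA (CPM, counts scaled by library size after TMM normalization). The sums hid shifts between markers in RA+Dipy replicate 1 and RA replicate 4. Atp2a1 was at 2116 and 8213 CPM in these, against 17750 to 21910 CPM elsewhere. Pvalb was at 46660 and 64400 CPM, against 11530 to 21460 CPM elsewhere. A library of each group stood apart from the other 6 over 4756 well expressed genes: the spread of log2 deviations from the 8-library median was 0.80 in RA+Dipy replicate 1 and 1.18 in RA replicate 4, against 0.17 to 0.34 elsewhere. Results are also given for the 6 libraries without this pair (n = 3 mice in each group). Hepatocyte markers, led by Alb and Serpina1a, were near 0, with summed levels of 0.115 to 0.680 CPM in RA+Dipy and 0.0781 to 1.01 CPM in RA. Endothelial markers, led by Flt1 and Pecam1, summed to 302 to 328 CPM in RA+Dipy and 276 to 392 CPM in RA, with 5 of 7 higher in RA+Dipy. Neutrophil markers, led by Mmp9 and Csf3r, summed to 5.61 to 6.86 CPM in RA+Dipy and 2.74 to 8.53 CPM in RA, with 3 of the 3 tested higher. Mast cell markers, led by Mcpt4 and Tpsb2, summed to 20.2 to 24.8 CPM in RA+Dipy and 16.0 to 63.7 CPM in RA, with 3 of 5 higher. T and B cell markers, led by Cd3e and Cd4, were low, at 1.39 to 2.00 CPM in RA+Dipy and 1.46 to 3.30 CPM in RA, and the 1 tested was lower. Of the fast fibre markers 3 of 8 were higher in RA+Dipy. Schwann cell markers were at 173 to 282 CPM in RA+Dipy and 243 to 559 CPM in RA, with 7 of 7 lower in RA+Dipy. Red blood cell markers, led by Hba-a1 and Hbb-bs, spanned 153 to 799 CPM in RA+Dipy and 149 to 1544 CPM in RA, with 3 of 5 higher. No marker was at 0 in every library.

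No complement gene passed the test between RA+Dipy and RA muscle (edgeR quasi-likelihood test, Benjamini-Hochberg adjusted over 12755 genes, smallest adjusted p of a complement gene 0.882). The calls over all genes were 0 as well, which is 0% of genes, also with DESeq2 and with limma-voom without library weights. Limma-voom with library weights called 133 of the 12755 genes and 0 members. In that fit 3633 genes and 11 of the 21 members had an unadjusted p under 0.05. In the edgeR fit, to which the values below belong, 488 genes (3.83%) did. Of the 21 tested members 13 were higher and 8 lower in RA+Dipy, where 52.2% of all genes were higher, and their median log2 fold change was 0.27, against 0.023 over all genes. At an unadjusted p under 0.05, 1 member was higher, the C3a receptor gene C3ar1, against 1.68% of all genes, and 0 were lower, against 2.15%. The values of both groups overlapped for all 21 members, against 2.72% of all genes that did not (1.46% higher and 1.26% lower).

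Without the 2 libraries that stood apart, 19 of the 21 were higher in RA+Dipy, against 51.3% of all genes, and the median log2 fold change was 0.30, against 0.0091 over all genes. Again 0 members passed the adjusted threshold (smallest adjusted p = 0.418 in edgeR), as did 0% of all genes. An unadjusted p under 0.05 was reached by 8 members, all higher, against 5.96% of all genes on that side: C1qb, C1qc, C1ra, C1s1, Masp1, C4b, C3 and C3ar1. None was lower at such a p, against 5.45% of all genes (11.4% in either direction). The count depends on single libraries. When each of the 6 was left out in turn, 15 to 19 members were higher and 2 to 11 had an unadjusted p under 0.05. The count was 2 with RA replicate 1 left out, 3 with RA+Dipy replicate 3 left out, 4 with RA+Dipy replicate 4 left out and 5 with RA replicate 3 left out, where 4.71% to 6.39% of all genes had such a p. It reached 11 without RA+Dipy replicate 2, where 15% of all genes had such a p, and 10 without RA replicate 2, where 28.1% did. C1s1 was the 1 member with such a p in all 6 fits. In bulk muscle, a change in the number of cells of a type and a change in RNA per cell cannot be told apart.

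**Figure D1:**
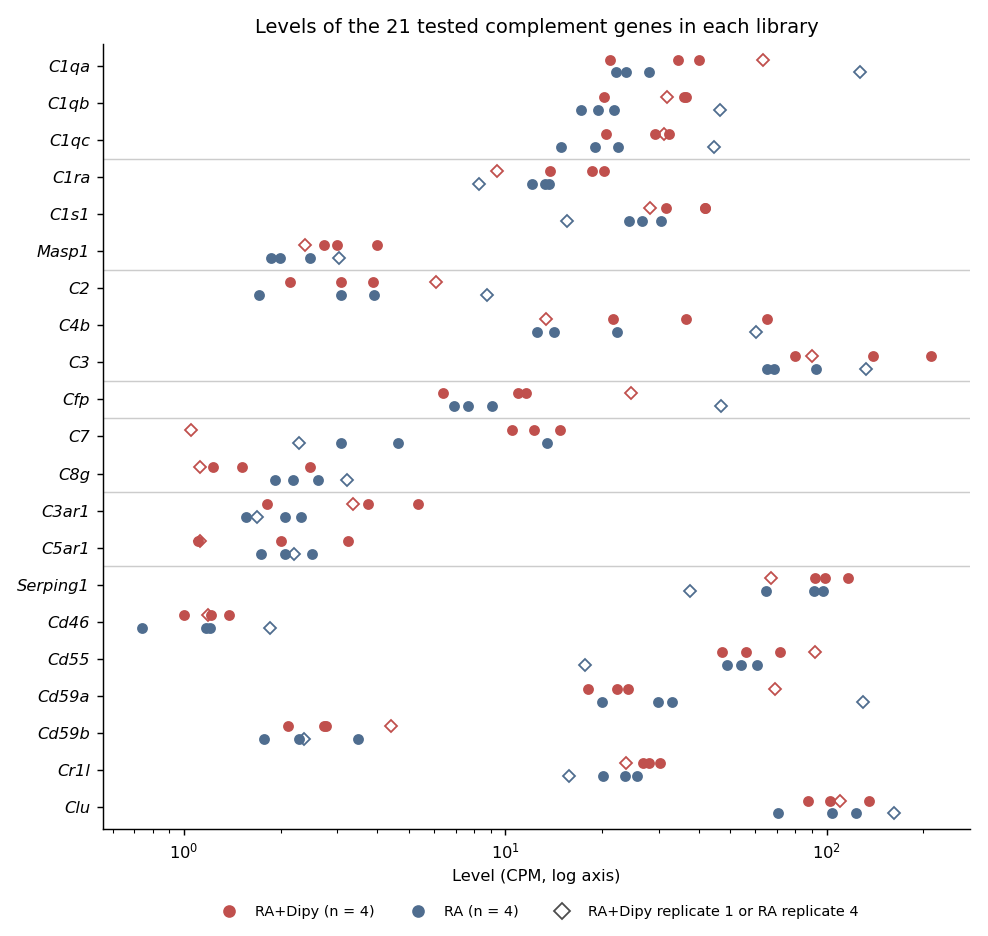
Level of each of the 21 tested complement genes in every library (CPM, log axis), RA+Dipy above RA within each row, with lines between the roles in the cascade. Open diamonds are RA+Dipy replicate 1 and RA replicate 4, and the values of the groups overlap in every row.

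**Figure D2:**
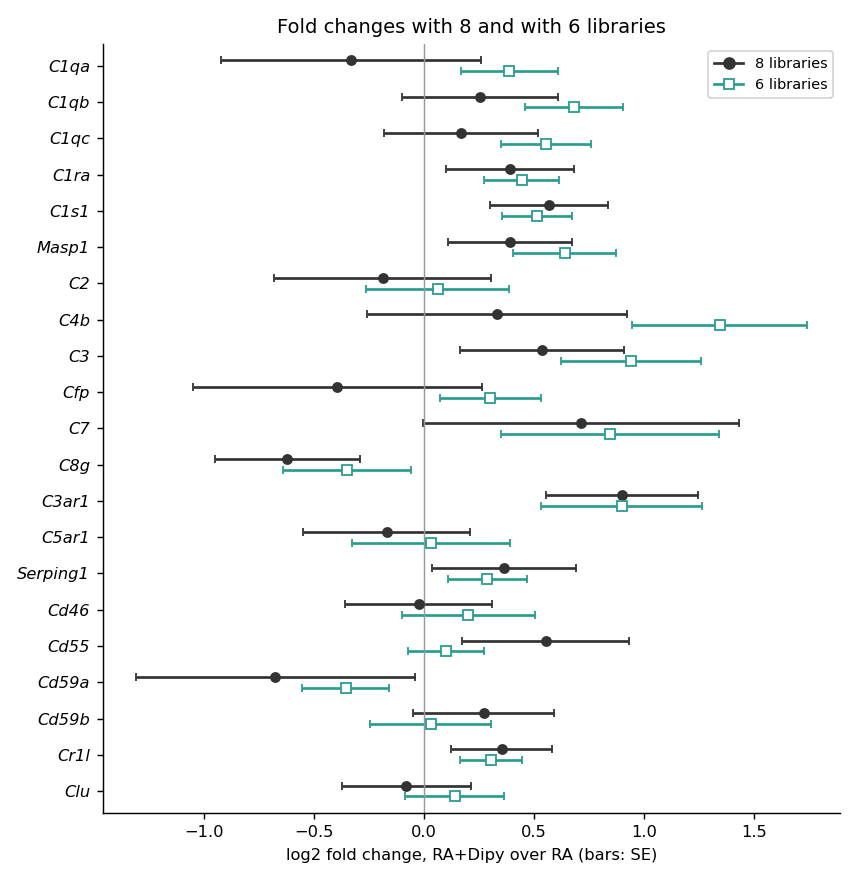
Log2 fold change of RA+Dipy over RA with its SE for the 21 tested members, with 8 libraries (filled circles) and with the 6 that remain without RA+Dipy replicate 1 and RA replicate 4 (open squares). With 6 libraries 19 of 21 lie above 0 and the bars are mostly shorter.

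The upstream regions of 4 members are shown because these genes stand for a C1q chain, the C1s protease, C3 and the C3a receptor. They are the 250 bases before the RefSeq transcription start (GRCm38.p6), read 5′ to 3′ on the gene's own strand, all on the minus strand. Capitals mark matches on either strand to any of GAGGAAG (PU.1), the interferon-stimulated response element (GAAA, any 2 bases, GAAA), TTCNNNGAA (gamma-activated site) and TTGCNNAA (C/EBP). C1s1 and C3 hold 1 match each, so none overlap in these windows. The window of C1qb lies at chr4:136886201-136886450, of C1s1 at chr6:124542360-124542609, of C3 at chr17:57228137-57228386 and of C3ar1 at chr6:122856158-122856407.
C1qb: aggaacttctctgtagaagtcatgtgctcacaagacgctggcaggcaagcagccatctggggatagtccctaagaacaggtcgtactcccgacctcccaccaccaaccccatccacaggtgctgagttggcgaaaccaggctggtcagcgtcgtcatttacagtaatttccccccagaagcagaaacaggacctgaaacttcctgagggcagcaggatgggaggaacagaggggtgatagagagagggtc
C1s1: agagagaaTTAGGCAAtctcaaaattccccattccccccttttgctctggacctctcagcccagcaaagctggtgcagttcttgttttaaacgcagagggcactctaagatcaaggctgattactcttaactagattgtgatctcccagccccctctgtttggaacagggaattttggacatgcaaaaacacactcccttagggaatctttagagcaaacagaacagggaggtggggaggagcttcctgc
C3: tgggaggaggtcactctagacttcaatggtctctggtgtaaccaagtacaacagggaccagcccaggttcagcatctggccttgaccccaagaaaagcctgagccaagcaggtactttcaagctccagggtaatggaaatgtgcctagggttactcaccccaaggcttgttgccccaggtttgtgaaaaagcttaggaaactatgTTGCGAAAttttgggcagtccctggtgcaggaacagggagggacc
C3ar1: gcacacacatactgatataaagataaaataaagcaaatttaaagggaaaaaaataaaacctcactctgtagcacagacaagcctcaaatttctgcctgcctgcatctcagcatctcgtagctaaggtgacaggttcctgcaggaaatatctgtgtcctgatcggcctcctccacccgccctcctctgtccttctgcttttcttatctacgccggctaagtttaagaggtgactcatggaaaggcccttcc
C3 held a C/EBP match that begins 45 bases before the start, and C1s1 one that begins 242 bases before it, while C1qb and C3ar1 held none of these letters. Promoter windows were matched for 23 of the 32 members, in 26 windows. C/EBP letters stood in 4 of these windows, against 9.56% of 32851 windows of all genes, PU.1 letters in 2 (10.6%), gamma-activated site letters in 3 (7.02%) and response element letters in 1 (2.98%), that of Cd59a.

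The C1q chains had no common direction with 8 libraries: the log2 fold change was -0.33 (SE 0.59) for C1qa, 0.25 (SE 0.35) for C1qb and 0.17 (SE 0.35) for C1qc. C1qb, the B chain, was at 31.8, 20.3, 36.0 and 36.6 CPM in RA+Dipy replicates 1 to 4, against 17.2, 19.5, 21.8 and 46.5 CPM in RA replicates 1 to 4. Its RA values lay below most RA+Dipy values except in RA replicate 4, which was the highest of all 8. C1qc, the C chain, had the same pattern, at 31.2, 20.5, 32.2 and 29.2 CPM in RA+Dipy against 14.9, 19.1, 22.4 and 44.8 CPM in RA. C1qa, the A chain, was at 63.2, 21.2, 40.1 and 34.5 CPM in RA+Dipy against 22.1, 23.7, 28.1 and 127 CPM in RA. Its highest values were in the libraries that stood apart. With 6 libraries the log2 fold change was 0.39 (SE 0.22) for C1qa, 0.68 (SE 0.22) for C1qb and 0.55 (SE 0.21) for C1qc, and the groups still overlapped because RA+Dipy replicate 2 lay below at least 1 of the RA libraries for each chain.

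The genes of the C1q chains lie side by side on chromosome 4 (C1qb at 136880129 to 136886187, C1qc at 136889804 to 136893065, C1qa at 136895917 to 136898803, minus strand, GRCm38), and none shares exon bases or a read-length stretch with another annotated gene. C1qc kept close to C1qb, with 0.797 to 1.01 C1qc counts per C1qb count in RA+Dipy and 0.868 to 1.03 in RA. C1qa did not: it had 1.99 counts per C1qb count in RA+Dipy replicate 1 and 2.73 in RA replicate 4, against 0.941 to 1.11 in the other RA+Dipy libraries and 1.22 to 1.29 in the other RA libraries. Macrophage markers, led by Cd74 and Lyz2, are given beside the chains because macrophages make C1q. Of the 14, 12 were higher in RA+Dipy (14 with 6 libraries), and their median was 0.62 on the log2 scale. Their summed level was 352, 247, 384 and 351 CPM in RA+Dipy against 175, 241, 234 and 347 CPM in RA. RA+Dipy replicate 2 was the lowest of its group, as for C1q. RA replicate 4, where all 3 chains peaked, was the highest RA library for 6 of the 14 markers, and its sum rested on Cd74, at 193 CPM against 71.6 to 82.3 CPM in the other RA libraries. Without Cd74 the other 13 summed to 289, 146, 275 and 272 CPM in RA+Dipy and 97.1, 170, 152 and 154 CPM in RA, so that RA replicate 2 was the highest RA library. The part of macrophage number in the C1q values was not tested. The lectins Mbl1 and Mbl2, made in liver, had 0 counts in all libraries, which allows levels of up to 0.111 to 0.198 CPM in the RA+Dipy libraries and 0.0591 to 0.253 CPM in the RA libraries.

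**Figure D3:**
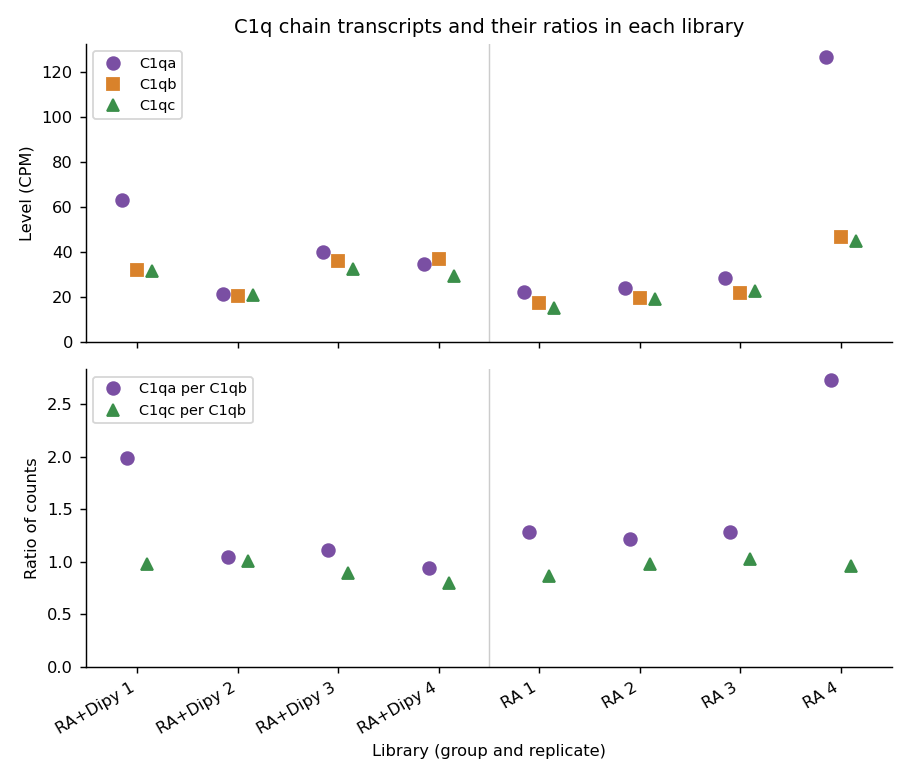
Levels of the C1q chain genes (CPM, upper panel) and counts of C1qa and C1qc per count of C1qb (lower panel) in each library, RA+Dipy left and RA right. C1qa stands at 1.99 and 2.73 counts per C1qb count in RA+Dipy replicate 1 and RA replicate 4, and C1qc stays between 0.797 and 1.03 in all 8.

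The proteases that C1q activates had higher mean levels in RA+Dipy, and neither passed the test. C1s1, the gene of C1s, was at 28.3, 31.7, 41.9 and 41.9 CPM in RA+Dipy replicates 1 to 4 and at 24.4, 30.5, 26.6 and 15.5 CPM in RA replicates 1 to 4 (log2 fold change 0.57, SE 0.27, edgeR adjusted p = 0.882). RA+Dipy replicate 1 lay below RA replicate 2, and the other 3 RA+Dipy libraries lay above every RA library. With 6 libraries the groups of C1s1 did not overlap, as for Masp1 and Cr1l, which makes 3 of 21 members against 8.03% of all genes on that side and 0 on the other against 6.54%, and its log2 fold change was 0.51 (SE 0.16). C1ra, the gene of C1r, was at 9.43, 13.7, 18.6 and 20.3 CPM in RA+Dipy against 12.1, 13.6, 13.3 and 8.28 CPM in RA (log2 0.39, SE 0.29, and 0.44, SE 0.17, with 6 libraries). In each group the library that stood apart was the lowest for both genes, and the highest for C1qa. Counts of C1s1 ran at 2.06 to 3.00 per C1ra count in RA+Dipy and 1.88 to 2.24 in RA.

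C1ra and C1s1 lie on chromosome 6 on opposite strands, at 124512405 to 124523443 and 124530345 to 124542359. The paralogs C1rb (1 count over all libraries) and C1s2 (12 counts) were too low to test. Of the 100-base stretches of C1ra transcripts 35.9% also occur in another gene, C1rb or Gm18840, and 17.4% of those of C1s1 do, mostly in Gm16567 on the opposite strand, so part of their reads cannot be assigned with certainty. Masp1, a protease of the lectin pathway, was at 2.37, 2.73, 4.00 and 3.00 CPM in RA+Dipy against 1.87, 1.99, 2.46 and 3.04 CPM in RA (log2 0.39, SE 0.28, and 0.64, SE 0.23, with 6 libraries). Masp2 had 22 counts in all, with 54.9% of its exon bases shared with Tardbp on the other strand. Fibroblast and fibro-adipogenic markers, led by Col1a1 and Col1a2, had 8 of 10 members higher in RA+Dipy and a median of 0.52 on the log2 scale. They summed to 2019 to 3847 CPM in RA+Dipy and 1556 to 2983 CPM in RA, and their part in the C1r and C1s values was not tested.

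C3, the protein on which all pathways converge, was at 89.8, 79.5, 140 and 211 CPM in RA+Dipy replicates 1 to 4 and at 65.2, 92.7, 68.5 and 133 CPM in RA replicates 1 to 4 (log2 0.54, SE 0.37, edgeR adjusted p = 0.882). RA+Dipy replicate 4 was the highest of all 8 and RA replicate 4 the highest RA library. The log2 fold change was 0.94 (SE 0.32) with 6 libraries, and it was 0.20 without RA+Dipy replicate 4 alone. C4b, the gene of the C4 that is cut by C1s, was likewise highest in replicate 4 of each group, with 13.4, 21.6, 36.5 and 65.0 CPM in RA+Dipy against 12.6, 22.2, 14.2 and 60.2 CPM in RA. Its log2 fold change was 0.33 (SE 0.59), 1.34 (SE 0.40) with 6 libraries and -0.19 (SE 0.58) without RA+Dipy replicate 4. When 1 library of the 8 was left out it ran from -0.19 to 1.08, so its size and sign depended on single libraries.

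RA+Dipy replicate 4 was also the library with the most transcript of adiponectin, the hormone of fat cells. Adipoq was at 20.3, 19.9, 22.9 and 101 CPM in RA+Dipy against 15.0, 10.4, 11.6 and 24.0 CPM in RA. Plin1, Cidec, Lep and Pck1 were also highest in RA+Dipy replicate 4, whereas Fabp4 was highest in RA+Dipy replicate 1 and Lpl and Retn in RA replicate 4. Of the 8 adipocyte markers, led by Lpl and Fabp4, 6 were higher in RA+Dipy, and the median was 1.12 on the log2 scale. Their summed level was 3077, 962, 928 and 1649 CPM in RA+Dipy and 1090, 911, 1228 and 2939 CPM in RA. The part of fat in the C3 and C4b values was not tested. C2, the partner of C4 in the C3 convertase, was at 2.14 to 6.07 CPM in RA+Dipy and 1.71 to 8.79 CPM in RA (log2 -0.19, SE 0.49, and 0.061, SE 0.32, with 6 libraries). C4a was not analysed here: GENCODE vM21 gives it as a processed transcript, and the tables list protein-coding genes. Of the 100-base stretches of C4b transcripts 15.2% also occur in C4a.

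**Figure D4:**
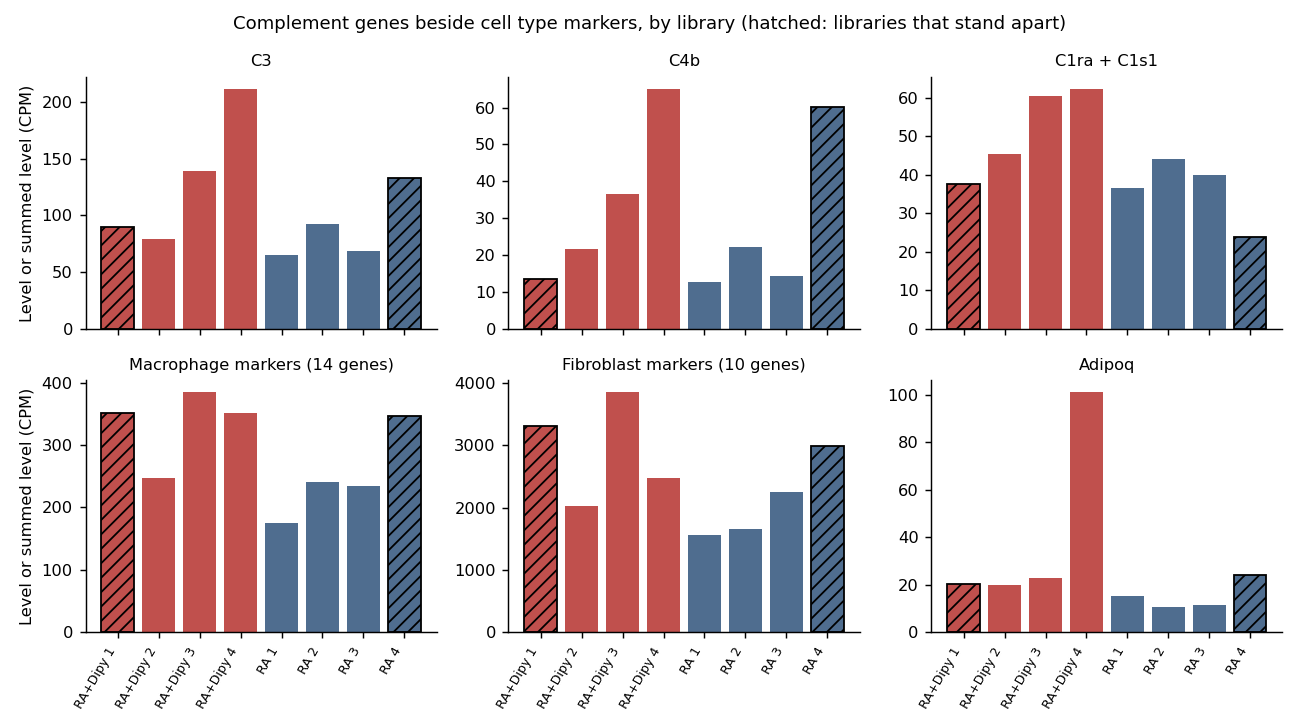
Levels of C3, C4b and the sum of C1ra and C1s1 (upper row), and of the summed macrophage markers, summed fibroblast markers and Adipoq (lower row), in each library (CPM), RA+Dipy left and RA right. Hatched bars are RA+Dipy replicate 1 and RA replicate 4. C3, C4b and Adipoq are all highest in RA+Dipy replicate 4, at 211, 65.0 and 101 CPM. The adipocyte markers Fabp4, Lpl and Retn, not drawn, were highest in other libraries.

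Of the alternative pathway, properdin (Cfp), which stabilises the convertase, was at 24.5, 6.39, 11.0 and 11.6 CPM in RA+Dipy against 7.66, 6.94, 9.10 and 47.1 CPM in RA. Like C1qa it was highest in the libraries that stood apart, and its log2 fold change was -0.39 (SE 0.66) with 8 libraries and 0.30 (SE 0.23) with 6. Cfb, the gene of factor B, had 5 counts over all 8 libraries. In GENCODE vM21, 79.5% of its exon bases (chromosome 17, 34856374 to 34862518) are shared with Gm20547, a gene on the same strand that spans Cfb and part of C2 and that had 0 counts in every library. How reads on such shared bases were counted is not known, so the count of Cfb cannot be read as its transcript level. The part of the overlap in this count was not tested. For C2, which had 756 counts in all, 46.9% of the exon bases are shared with Gm20547 or Zbtb12.

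Terminal components were sparse. C7, which anchors the forming attack complex in the membrane, was at 1.06, 10.5, 14.8 and 12.3 CPM in RA+Dipy and at 3.07, 13.5, 4.65 and 2.28 CPM in RA (log2 0.71, SE 0.72, and 0.84, SE 0.50, with 6 libraries). The lowest level was in RA+Dipy replicate 1 and the next in RA replicate 4, and RA replicate 2 lay among the RA+Dipy libraries. Without RA replicate 2 the log2 fold change was 1.53. C8g, a small chain of C8, was at 1.12, 2.47, 1.23 and 1.52 CPM in RA+Dipy against 2.19, 1.92, 2.62 and 3.21 CPM in RA (log2 -0.62, SE 0.33, and -0.35, SE 0.29, with 6 libraries). It was 1 of 2 members that were lower in RA+Dipy with 6 libraries, the other being Cd59a. C6 had 51 counts in all and was not tested. Of the other genes of the attack complex, C8a and C8b had 0 counts, C9 had 3 and Hc, the mouse gene of C5, had 13.

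C3ar1, the receptor of C3a on myeloid cells, had the smallest unadjusted p of the members (0.0256, edgeR adjusted p = 0.882). It was at 3.36, 1.81, 3.73 and 5.36 CPM in RA+Dipy replicates 1 to 4 and at 1.56, 2.31, 2.07 and 1.69 CPM in RA replicates 1 to 4. RA+Dipy replicate 2 lay within the RA range, and the other 3 RA+Dipy libraries lay above every RA library. The log2 fold change was 0.90 with 8 libraries (SE 0.34) and with 6 (SE 0.37). Its lowest value was 0.63 when 1 library of the 8 was left out, RA+Dipy replicate 4. C5ar1, the main receptor of C5a, was at 1.11 to 3.24 CPM in RA+Dipy and 1.73 to 2.50 CPM in RA (log2 -0.17, SE 0.38, and 0.030, SE 0.36, with 6 libraries). C5ar2 (55 counts in all) and Vsig4, a C3b receptor of resident macrophages (44 counts), were too low to test.

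Of the 7 regulators tested, 4 had a higher and 3 a lower fitted level in RA+Dipy with 8 libraries, and none passed the test. Serping1, the gene of C1 inhibitor, was at 67.3, 92.0, 116 and 98.9 CPM in RA+Dipy against 64.7, 91.4, 97.4 and 37.6 CPM in RA (log2 0.36, SE 0.33). RA replicate 4 held the lowest value, and without it the log2 fold change was 0.16. The fold change of Serping1 was 0.29 (SE 0.18) with 6 libraries and at most 0.53 when 1 library of the 8 was left out. Cd55, which dissociates C3 convertases, was at 92.0, 47.1, 71.4 and 56.1 CPM in RA+Dipy against 54.2, 60.8, 49.0 and 17.7 CPM in RA. The libraries that stood apart were its highest and its lowest, and the log2 fold change of 0.55 (SE 0.38) was 0.10 (SE 0.17) without them. Cr1l, the gene of the mouse regulator Crry, was at 23.8, 26.8, 30.2 and 28.0 CPM in RA+Dipy against 20.1, 25.7, 23.5 and 15.8 CPM in RA (log2 0.35, SE 0.23, and 0.30, SE 0.14, with 6 libraries).

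Cd59a, which blocks the attack complex, was at 68.9, 22.2, 24.1 and 18.03 CPM in RA+Dipy against 33.1, 20.0, 29.9 and 130 CPM in RA (log2 -0.68, SE 0.63, and -0.36, SE 0.20, with 6 libraries). As for C1qa and Cfp, the highest values were in the libraries that stood apart, and without RA replicate 4 alone the log2 fold change was 0.29. Its paralog Cd59b was at 2.10 to 4.42 CPM in RA+Dipy and 1.78 to 3.47 CPM in RA (log2 0.27, SE 0.32, and 0.029, SE 0.28, with 6 libraries), and 0.3% of the 100-base stretches of Cd59a occur in it. Clu, clusterin, an inhibitor of the attack complex with many other roles, was at 87.4 to 135 CPM in RA+Dipy and 70.4 to 162 CPM in RA (log2 -0.081, SE 0.29, and 0.14, SE 0.23, with 6 libraries). Cd46, in mouse mainly a gene of testis, was at 1.00 to 1.39 CPM in RA+Dipy and 0.742 to 1.86 CPM in RA (log2 -0.025, SE 0.34, and 0.20, SE 0.30, with 6 libraries). Cfi, the protease factor I, had 0 counts in all libraries.

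**Figure D5:**
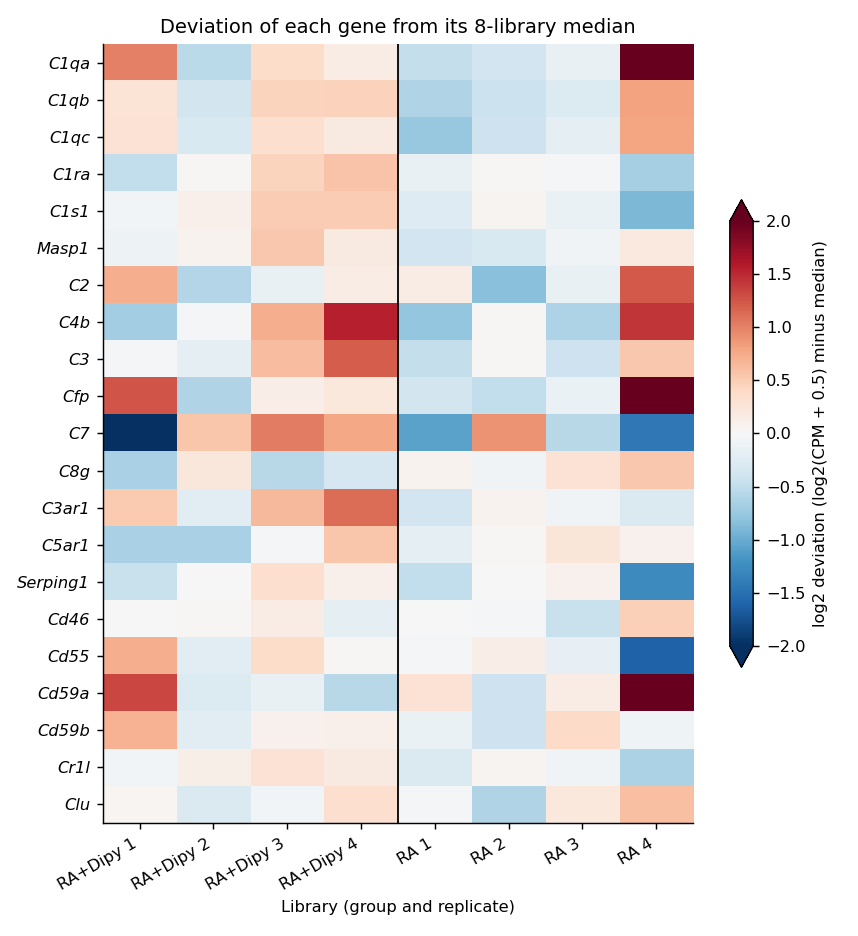
Deviation of each tested member from its own 8-library median (log2 of CPM + 0.5, red higher, blue lower), RA+Dipy libraries left and RA libraries right. Colours are limited to 2 log2 units in either direction. RA replicate 4 is more than 1 log2 unit above the median for 5 members and more than 1 below for 3. In that library 41.4% of 4756 well expressed genes lay more than 1 log2 unit from their median in either direction.

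On a scale that allows genes to be compared, the mean CPM per kilobase of exon over the 8 libraries, the members ranked with C1qa (43.2), Serping1 (35.8), Clu (32.6) and C1qb (26.4) first, followed by Cd59a (23.9), C3 (21.4), C1qc (13.9) and Cd55 (11.6). Of the tested members the lowest were Cd46 (0.161) and Masp1 (0.273). With the 6 libraries Serping1 (40.2) and Clu (30.2) came before C1qa (27.2) and C1qb (23.2), and Cd59a was at 13.6, so the first place of C1qa rested on the libraries that stood apart. Neighbours in this order overlapped across libraries: C1qa spanned 20.4 to 122 and Serping1 16.2 to 50.0 on this scale. Members did not deviate together within the libraries that stood apart. RA replicate 4 was the highest of the 8 libraries for 9 of 21 members and the lowest for 5, and RA+Dipy replicate 4 was the highest for 6. Across the 21 members the deviation had a Spearman correlation with the GC content of the longest transcript of 0.047, -0.46, -0.056 and 0.22 in RA+Dipy replicates 1 to 4 and of -0.39, -0.53, -0.14 and 0.59 in RA replicates 1 to 4. This is a description over genes of the same libraries.

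Of 29 further complement genes, 13 were tested, 0 passed the adjusted threshold in edgeR and 2 had an unadjusted p under 0.05, where 3.83% of all genes did. Of the 13, 12 were higher and 1 lower in RA+Dipy, where 52.2% of all genes were higher, and the median was 0.45 on the log2 scale (11 of 14 higher and a median of 0.42 with 6 libraries). Itgb2, the common chain of complement receptors 3 and 4, was at 3.23, 3.54, 6.81 and 6.76 CPM in RA+Dipy against 2.72, 3.27, 2.81 and 2.53 CPM in RA (log2 0.84, SE 0.31, unadjusted p = 0.0208, edgeR adjusted p = 0.882). RA+Dipy replicate 1 alone lay below an RA library, replicate 2. With 6 libraries the log2 fold change of Itgb2 was 0.97 (SE 0.27). Its partner chains had log2 fold changes of 0.65 (SE 0.44) for Itgam and 0.72 (SE 0.53) for Itgax. With 6 libraries these were 0.997 (SE 0.26) for Itgam and 0.98 (SE 0.54) for Itgax. Of the exon bases of Itgam 68.7% are shared with Gm49368. C1rl, a relative of C1r, was at 1.48 ± 0.537 CPM in RA+Dipy and 0.803 ± 0.267 CPM in RA (SD, n = 4 each). Its log2 fold change was 0.92 (SE 0.38), and 1.10 (SE 0.37) with 6 libraries. Vtn, vitronectin, was at 25.7 ± 7.43 CPM in RA+Dipy and 41.2 ± 24.2 CPM in RA (log2 -0.68, SE 0.39, and -0.082, SE 0.21, with 6 libraries). The highest in CPM was Cfd, the protease factor D that fat cells secrete as adipsin. It was at 208, 111, 120 and 482 CPM in RA+Dipy against 129, 77.8, 99.2 and 369 CPM in RA (log2 0.45, SE 0.60, and 1.24, SE 0.57, with 6 libraries). Its top libraries were RA+Dipy replicate 4 and RA replicate 4, which were also the top pair for C4b. C1qbp, a mitochondrial protein named for binding C1q, was at 88.5 ± 17.5 CPM in RA+Dipy and 80.7 ± 24.4 CPM in RA (log2 0.13, SE 0.29, and -0.18, SE 0.15, with 6 libraries).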

How the data were processed

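Per the submitters' processing notes and the series' design text, fastp 0.20.0 preprocessed the 100 nt single reads, STAR 2.7.3a aligned them (GRCm38.p6), and HTSeq counted them per gene without regard to strand. The labels name TruSeq libraries and the design text a directional kit. No source used here names the annotation or how ambiguous reads were treated. The authors deposited raw counts per protein-coding symbol, not normalized. Counts of 24 symbols on more than 1 line were summed, none of them a complement gene.

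Genes kept by filterByExpr (minimum count 10) were 12755. TMM scaling and the two-sided quasi-likelihood test of edgeR 4.0.16 (R 4.3.3, robust estimates, group as the sole term) were used on all 8 libraries. P-values were Benjamini-Hochberg adjusted across every tested gene (threshold 0.05). SE is the absolute log2 fold change over the square root of F. Fold changes are RA+Dipy over RA. Lengths, exon overlaps and 100-base stretches come from GENCODE vM21 (GRCm38), promoters from RefSeq (GRCm38.p6).

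Alternatives were DESeq2 1.42.0, limma-voom (limma 3.58.1), other scalings and filters, a replicate block and left-out libraries. The fits that leave out a further library of the 6 were added after seeing the data. The members and lists were chosen with earlier results of these data known. Every member is accounted for. Of the further complement genes, the 6 with the smallest p and the 3 with the highest CPM were named, and of each marker list the 2 with the highest CPM. Some genes that this rule names are not reported here. Hc, C8a, C8b, C9 and Adipoq were named after their values were seen. The pipelines were tested on simulated data with less spread than these 8 libraries and no library that stood apart. That check therefore does not show how many true changes the fit would find here. The limit for a count of 0 is 3 counts, for counting error only.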

Additional observations from a re-analysis of the deposited data

Results flagged for a closer look

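In each group of 4 libraries, every tested member was checked for a highest or lowest value far from the other 3, by the gap to its nearest neighbour over the whole range (Dixon's 95% critical value). This flagged 5 of 42 groups, where the nominal rate for independent checks is about 1 in 20. The 42 checks share libraries, so they are not independent, and the rate over all tested genes is not given here. All 5 fell in the 2 libraries that stood apart over all genes, each as the highest of its group. In RA replicate 4, 41.4% of 4756 well expressed genes lay more than 1 log2 unit from their median. In RA+Dipy replicate 1, 20.1% did. The 5 flags therefore cannot be read as particular to complement genes. RA replicate 4 was flagged for C1qa at 127 CPM (22.1 to 28.1 CPM in the other RA libraries), for C1qb at 46.5 CPM (17.2 to 21.8 CPM), for Cfp at 47.1 CPM (6.94 to 9.10 CPM) and for Cd59a at 130 CPM (20.0 to 33.1 CPM). RA+Dipy replicate 1 was flagged for Cd59a at 68.9 CPM, with 18.03 to 24.1 CPM in the other RA+Dipy libraries.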

How the results depend on the processing

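The count of called complement genes was 0 in each of the 18 alternatives other than those that leave out a further library of the 6, while 11 of 21 members changed direction in at least 1 of 24 alternatives and 10 in none: C1qb, C1ra, C1s1, Masp1, C3, C7, C8g, C3ar1, Serping1 and Cr1l. Limma-voom with library weights called 133 genes of all, with a smallest adjusted p of a member of 0.0508. When single libraries were left out, from all 8 or from the 6, the calls ran from 0 to 815 over all genes and from 0 to 2 over the members. The 815, of 12990 genes tested, and the 2, of the 21 members, came without RA replicate 2 and the 2 libraries that stood apart. In that fit 28.1% of all genes had an unadjusted p under 0.05, so calls were common outside the members too. The 2 were C1s1 at 0.61 (adjusted p = 0.0466) and C7 at 1.74 (adjusted p = 0.0368), both edgeR. With RA replicate 1 left out in place of RA replicate 2, 2 genes of all were called.

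Cd46 stood at 0.040 with upper-quartile factors and 0.057 with limma-voom. Limma-voom with library weights gave 0.41 for C1qa, 0.37 for Cd46, -0.036 for Cd59b and 0.26 for Cfp. With 6 libraries the value was 0.39 for C1qa, 0.061 for C2, 0.030 for C5ar1, 0.20 for Cd46, 0.30 for Cfp and 0.14 for Clu. When 1 library of the 8 was left out, the log2 fold change ran from -0.65 to 0.71 for C1qa, from -0.020 to 0.61 for C1qc, from -0.50 to 0.38 for C2, from -0.19 to 1.08 for C4b and from -0.58 to 0.015 for C5ar1. It ran from -0.21 to 0.21 for Cd46, from -1.31 to 0.29 for Cd59a, from -0.86 to 0.78 for Cfp and from -0.26 to 0.15 for Clu. When a further library of the 6 was left out, other values turned as well. C1qa stood at 0.61, 0.18 and 0.32 without RA+Dipy replicate 2, 3 or 4 and at 0.31, 0.37 and 0.48 without RA replicate 1, 2 or 3. In the same order Cfp stood at 0.52, 0.19, 0.14, 0.28, 0.22 and 0.41, and Cd46 at 0.19, 0.081, 0.31, 0.32, 0.28 and 0.019. Without RA+Dipy replicate 2 the value was 0.26 for C2, 0.34 for C5ar1 and 0.27 for Clu, and without RA+Dipy replicate 3 it was 0.045 for C2, 0.062 for C5ar1, -0.080 for Cd55, -0.037 for Cd59b and 0.17 for Clu. Cd59b was at -0.042 without RA+Dipy replicate 4, -0.041 without RA replicate 1 and -0.15 without RA replicate 2. C2 and Clu were at 0.35 and 0.17 without RA replicate 1, and at 0.095 and 0.32 without RA replicate 3, and C5ar1 was at 0.029 without RA replicate 2 and 0.16 without RA replicate 3. Where no left-out library shows the cause, the cause was not tested. Deviations from the group means of same-numbered libraries had correlations of -0.31, 0.19, 0.27 and -0.42 for numbers 1 to 4. Numbers 1 and 4 each include a library that stood apart, and those libraries, RA+Dipy replicate 1 and RA replicate 4, correlated at 0.43. These values therefore cannot show whether the numbers pair the mice, and no label states a pairing. With the replicate block 0 genes were called and 165 had an unadjusted p under 0.05, against 488 without it, C1qa stood at 0.024 and Cd46 at 0.014. The members with 55 counts or fewer in all were not tested.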
